A study of Homo sapiens with 20 samples.

Results

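The genes described here are 49 genes for proteins that the liver secretes into blood plasma. They were chosen by gene symbol. Every exon skipping event and every row of the FUBP1 binding table under one of these symbols was used. The set holds 9 carrier and transport proteins (ALB, AFP, GC, TTR, TF, HPX, CP, RBP4 and ORM1) and 7 apolipoproteins (APOA1, APOA2, APOB, APOC3, APOE, APOH and APOM). The next 9 are serpin protease inhibitors and relatives (SERPINA1, SERPINA3, SERPINA5, SERPINA6, SERPINC1, SERPIND1, SERPINF1, SERPINF2 and SERPING1), followed by the 3 fibrinogen chains (FGA, FGB and FGG). It also holds 6 clotting and fibrinolysis factors (F2, F5, F7, F10, F12 and PLG) and the kininogen gene KNG1 with the fetuins AHSG and FETUB. The remaining members are 5 genes of the inter-alpha-trypsin inhibitor family (ITIH1, ITIH2, ITIH3, ITIH4 and AMBP), 5 complement genes (C3, C4A, C5, CFB and CFI), and VTN and A1BG. The 49 genes gave 104 of 19792 skipped exon events in the FUBP1 knockdown, 179 of 32990 in the U3 depletion and 71 of 7065 in the FBL knockdown, and 49 of 28278 rows in the binding table.

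Hepatocytes make most of the proteins of plasma and release them through the secretory pathway. Their genes are among the most strongly transcribed in the liver, under the control of liver transcription factors such as HNF4A and the C/EBP and FOXA families. Part of the set, including fibrinogen, SERPINA3, ORM1 and C3, rises in the acute phase response, while ALB and TTR fall in it. Many of these transcripts are short, have small introns and are spliced into a single main messenger RNA. FBL, fibrillarin, is the methyltransferase of the box C/D small nucleolar ribonucleoproteins, which place 2′-O-methyl groups on RNA. U3 is the box C/D small nucleolar RNA needed to process the precursor of ribosomal RNA, and FUBP1 is an RNA and DNA binding protein with KH domains that takes part in splicing at 3′ splice sites.

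All samples were HepG2, a human liver cancer cell line that still secretes plasma proteins. In the first experiment cells received control siRNA (siCtrl2) or siRNA against FUBP1 (siFUBP1) for 48 h before polyadenylated RNA was sequenced, with 3 libraries each. In the second, cells received an antisense oligonucleotide against GFP (GFP ASO) or against the U3 small nucleolar RNA (U3 ASO) for 72 h before polyadenylated RNA was sequenced, with 3 libraries each. In the third, cells received control siRNA (siCtrl) or siRNA against FBL (siFBL) for 48 h. The lysate before immunoprecipitation (input) and the RNA recovered with a FUBP1 antibody (FUBP1 RIP) were sequenced, with 2 libraries of each kind. The input libraries served both as the splicing data of the FBL knockdown and as the reference for the binding values. The replicates were separate biological replicates per the study's methods. For events and gene levels, p-values rest on the spread between replicates, moderated across all events or genes of a table. An event whose skipping reads lay in a single library could therefore still be called. Binding p-values rest on the standard errors deposited by the authors. Replicate numbers below are positions in the deposited lists of reads.

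Junction reads over all events ranged from 2693397 to 4474350 per library in the FUBP1 table, from 11249641 to 13321799 in the U3 table and from 910779 to 1142189 in the FBL table, so the U3 experiment gave the most precise values. Levels are given as RPM, the junction reads of a gene or event per 1000000 junction reads of its table. FUBP1 itself fell from 45.2, 56.1 and 50.3 RPM in siCtrl2 to 8.42, 10.1 and 4.08 in siFUBP1 (log2 change -2.67, adjusted p = 2.1e-07, limma). FUBP1 was also called lower in the U3 experiment, at 34.1 RPM in GFP ASO and 24.7 in U3 ASO (log2 change -0.45 ± 0.15 (SE), adjusted p = 0.0227, limma). FBL had no skipped exon event in the FBL table and U3 is not a spliced messenger RNA, so neither target could be checked in this way. All 7 hepatocyte markers (ALB, APOA1, TTR, SERPINA1, AFP, HNF4A and ASGR1) were measured in each table. Of the fibroblast, endothelial, macrophage and lymphocyte markers, none passed the filter on low reads.

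Of the 49 genes, 41 had an event in at least 1 table and 27 in all 3. GC, APOM, SERPINA6, SERPING1, FGB, KNG1, C4A and CFB had none and are described for FUBP1 binding only. SERPINA1 was listed only on an alternate contig of chromosome 14, with 3, 4 and 2 events in the FUBP1, U3 and FBL tables, so its junction reads are not those of the whole gene. The 208 distinct events on main chromosomes covered 171 distinct exons. Of these events 205 (98.6%) had an exon with both ends as in GENCODE 44, and 151 skipped a single exon of the canonical transcript.

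The exons on which the splicing results turned are shown from the hg38 genome, read on the strand of the gene, with the exon in capitals and 25 bases of intron on each side in lower case. Exons 7 and 8 of AFP, alpha-fetoprotein, the fetal relative of albumin, lie at chr4:73444968-73445147 and chr4:73447437-73447701 on the plus strand with these flanks. They are shown because exon 8 was skipped more often after 2 depletions. Exon 21 of APOB, the scaffold protein of low density lipoprotein, lies at chr2:21016414-21016674 on the minus strand, and is shown because it was skipped more often after U3 depletion. Exon 7 of CFI, the complement factor I protease, lies at chr4:109757738-109757808 on the minus strand, and is shown as a short exon that gave many reads of both forms.
AFP exon 7: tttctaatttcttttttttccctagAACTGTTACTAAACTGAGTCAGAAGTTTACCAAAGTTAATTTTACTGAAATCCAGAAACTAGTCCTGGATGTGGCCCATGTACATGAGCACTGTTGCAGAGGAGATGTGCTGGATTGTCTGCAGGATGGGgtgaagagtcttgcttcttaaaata
AFP exon 8: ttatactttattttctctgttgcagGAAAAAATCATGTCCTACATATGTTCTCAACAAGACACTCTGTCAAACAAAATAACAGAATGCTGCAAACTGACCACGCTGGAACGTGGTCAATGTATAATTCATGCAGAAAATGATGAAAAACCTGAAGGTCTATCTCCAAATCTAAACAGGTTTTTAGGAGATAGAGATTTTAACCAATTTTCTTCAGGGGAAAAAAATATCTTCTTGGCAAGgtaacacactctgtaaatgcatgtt
APOB exon 21: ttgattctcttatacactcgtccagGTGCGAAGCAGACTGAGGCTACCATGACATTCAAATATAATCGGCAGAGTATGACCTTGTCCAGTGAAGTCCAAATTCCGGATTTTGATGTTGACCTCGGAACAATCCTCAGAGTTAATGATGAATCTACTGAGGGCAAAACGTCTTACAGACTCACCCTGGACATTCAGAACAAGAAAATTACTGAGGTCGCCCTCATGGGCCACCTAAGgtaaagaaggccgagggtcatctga
CFI exon 7: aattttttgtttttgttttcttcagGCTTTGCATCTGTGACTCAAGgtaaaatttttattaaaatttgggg
All 4 exons follow ag and precede gt in the introns. The 215 bases of AFP exon 8 and the 211 bases of APOB exon 21 are coding in full and are not a multiple of 3, so skipping either alone shifts the reading frame. AFP exons 7 and 8 together span 345 bases and keep it.

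In control cells nearly all listed exons of the plasma protein genes were included in nearly all transcripts. The inclusion level, the share of transcripts that keep the exon after the length of each form is allowed for, was at least 0.99 in siCtrl2 for 66 of 98 events tested (67.3%), against 39.1% of all 16213 events. In the U3 experiment it was 131 of 174 events (75.3%) against 49.1%, and in the FBL experiment 49 of 64 (76.6%) against 34.6%. These genes were also read more deeply. They had a median of 1765 junction reads per event and library against 60.0 over all events in the FUBP1 table, 4522 against 124.5 in the U3 table and 1532 against 39.8 in the FBL table. Small shares of skipping were therefore measurable in them that would not be in most genes. Depth also bears on the contrast above. At 60.0 reads, an event with 1 skipping read in each library falls below 0.99. How much of the contrast follows from depth was not tested.

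The exceptions were few. Exon 2 of SERPINA5, the protein C inhibitor, was kept in 0.672 ± 0.026 (SD, n = 3) of transcripts in siCtrl2, 0.706 ± 0.0289 (SD, n = 3) in GFP ASO and 0.644 ± 0.0471 (SD, n = 2) in siCtrl input. Its change after depletion had an unadjusted p of 0.147, 0.237 and 0.802 in the FUBP1, U3 and FBL experiments. Exon 12 of F2, prothrombin, was skipped by 8.92%, 7.61% and 5.02% of junction reads in the 3 control groups. A 169-base exon of SERPINC1, antithrombin, absent from its canonical transcript, was kept at 0.016 (siCtrl2) and 0.0347 (GFP ASO).

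Exon skipping was compared between each depletion and its own controls by a quasi-binomial test of the inclusion and skipping reads. The test was fitted on all events that averaged 10 or more junction reads in a library, and events were called at a Benjamini-Hochberg adjusted p under 0.1. After FUBP1 knockdown 4 of 98 events were called, all with lower inclusion, where 0.185% of all events passed. An unadjusted p under 0.05 was reached by 15 of them (6 lower), where 3.87% of all events did. After U3 depletion 6 of 174 were called, 5 of them lower, against 0.179% of all events, and 20 reached an unadjusted p under 0.05 (16 lower) against 4.14%. After FBL knockdown 0 of 64 events were called by this test and 0 by limma on the log2 odds, where 0 of 5218 events (0.0%) passed. The unadjusted p was under 0.05 for 4 of them, against 2.26%. Limma on the log2 odds called 0 of the events of the set in each of the 3 experiments, so the calls rest on the read-based test. Of all events it called 8 without and 2 with a variance trend after FUBP1 knockdown, and 0 in the other 2 experiments. The events of the set were read more deeply than most, so their shares of calls are not like for like with those of all events. Of the 4 calls after FUBP1 knockdown 2 rest on the same skipping reads.

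AFP gave 3 of the 4 calls after FUBP1 knockdown. Reads that joined exon 7 directly to exon 9, skipping exon 8 alone, numbered 21, 24 and 30 in siCtrl2 and 85, 60 and 53 in siFUBP1, out of about 24138 junction reads per library. All 3 siFUBP1 libraries lay above all 3 siCtrl2 libraries, and the skipping share rose from 0.0929% to 0.316% (adjusted p = 0.0538). Reads that joined exon 6 to exon 9, skipping exons 7 and 8 together, numbered 280, 368 and 223 in siCtrl2 and 406, 368 and 277 in siFUBP1. These raw numbers come from libraries of unequal depth, and in RPM they were 96.7, 82.2 and 73.3 in siCtrl2 and 114, 116 and 103 in siFUBP1, without overlap. The same reads enter 2 listed events, and their share rose from 2.68% to 4.21% against the exon 7 junctions (adjusted p = 0.0396) and from 1.39% to 2.21% against the exon 8 junctions (adjusted p = 0.0452). In RPM, exon 8 skipping went from 7.49 ± 2.26 to 20.8 ± 2.69 and exon 7 and 8 skipping from 84.1 ± 11.8 to 111 ± 6.97 (SD, n = 3). Leaving out 1 library at a time, exon 8 skipping kept its call only without siCtrl2 replicate 3 (adjusted p = 0.086). The exon 7 event kept its call only without siCtrl2 replicate 1 (adjusted p = 0.0319) or siFUBP1 replicate 3 (0.0758), and the exon 8 event of the same junction only without siCtrl2 replicate 1 (0.0512) or siFUBP1 replicate 1 (0.0655).

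After U3 depletion exon 8 of AFP was again skipped alone more often, with 75, 38 and 82 in GFP ASO and 94, 100 and 137 in U3 ASO skipping reads. The U3 ASO libraries all lay above the GFP ASO libraries, and the share rose from 0.0984% to 0.249% (adjusted p = 0.0551). No change was detectable in skipping of exons 7 and 8 together. Those reads numbered 959, 960 and 1087 in GFP ASO and 596, 560 and 756 in U3 ASO, in a gene whose reads as a whole were also lower. Their share was 3.63% and 3.52% (unadjusted p = 0.766). After FBL knockdown exon 8 skipping reads numbered 18 and 0 in siCtrl input and 32 and 2 in siFBL input, where the libraries within each group differed more than the groups, and the unadjusted p was 0.655. In the U3 experiment the call for exon 8 was kept without GFP ASO replicate 1 or 3 (adjusted p = 0.0511 and 0.087) and lost without any other library (0.236 to 0.793).

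**Figure D1:**
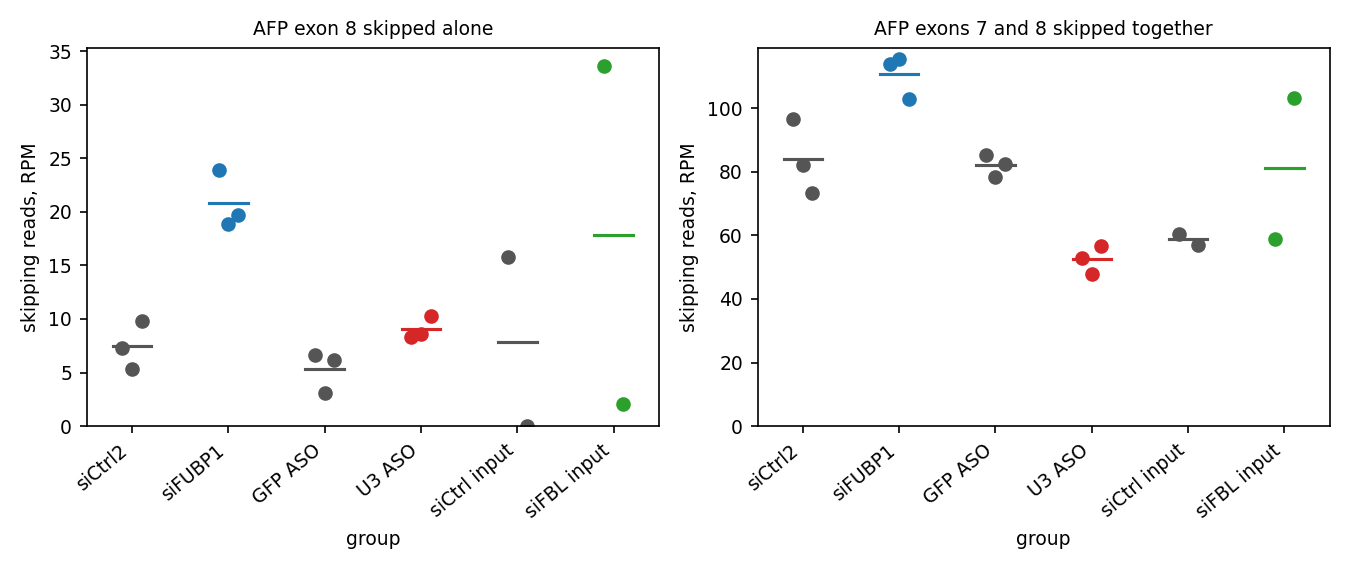
Skipping reads of AFP in RPM (vertical axes) in each library of the 6 groups, for exon 8 alone (left) and exons 7 and 8 together (right), with points for libraries and lines for group means. Exon 8 skipping means were 7.49 in siCtrl2 and 20.8 in siFUBP1, and 5.33 in GFP ASO and 9.05 in U3 ASO. Skipping of both exons went from 82.0 to 52.5 in the U3 experiment, where AFP reads also fell.

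Exon 21 of APOB was the call after U3 depletion with the most even support. Its skipping reads numbered 51, 24 and 33 in GFP ASO and 79, 123 and 116 in U3 ASO. All U3 ASO libraries lay above all GFP ASO libraries, and the share rose from 0.112% to 0.395% (adjusted p = 0.00605). The call was lost without GFP ASO replicate 2 (adjusted p = 0.149) or U3 ASO replicate 2 (0.219). After FUBP1 knockdown no change of this exon was detectable, with 10, 25 and 18 in siCtrl2 and 32, 10 and 19 in siFUBP1 skipping reads and shares of 0.0695% and 0.0687% (unadjusted p = 0.991). In the FBL experiment its shares were 0.132% and 0.0786% (unadjusted p = 0.358).

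The other calls rested on skipping reads in 1 or 2 libraries. Skipping reads of exon 13 of ALB, serum albumin, numbered 0, 0 and 0 in siCtrl2 and 56, 8 and 0 in siFUBP1 (adjusted p = 0.0648, and 0.932 without siFUBP1 replicate 1). After U3 depletion those of a 164-base exon of C3, the central complement protein, numbered 0, 0 and 0 in GFP ASO and 0, 0 and 136 in U3 ASO (adjusted p = 3.8e-05), and without U3 ASO replicate 3 none remained. A 108-base exon of ITIH2, a heavy chain that binds hyaluronan, had 0, 0 and 0 in GFP ASO and 0, 140 and 59 in U3 ASO skipping reads (adjusted p = 3.8e-08), and it stayed called without each library in turn. On the alternate contig, a 148-base exon of SERPINA1, alpha-1-antitrypsin, had 0, 0 and 0 in GFP ASO and 0, 0 and 336 in U3 ASO, and its 271-base exon had 2, 132 and 0 in GFP ASO and 0, 0 and 0 in U3 ASO (adjusted p = 5.0e-10 and 0.0311). In each of these 5 events the groups overlapped, because at least 1 library of the raised group had no skipping reads.

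Events that passed only the unadjusted threshold after FUBP1 knockdown numbered 11, and 9 of them had a lower skipping share in siFUBP1. Skipping reads of a 173-base exon of TF, transferrin, numbered 36, 32 and 17 in siCtrl2 and 5, 2 and 1 in siFUBP1 (share from 0.641% to 0.0662%, unadjusted p = 0.00136). Those of a 133-base exon of APOA2, an apolipoprotein of high density lipoprotein, numbered 39, 69 and 32 in siCtrl2 and 16, 18 and 3 in siFUBP1 (unadjusted p = 0.00651). In both genes the groups did not overlap. For a 143-base exon of AMBP, the precursor of alpha-1-microglobulin and bikunin, the share went from 0.678% to 0.193% (unadjusted p = 0.00424). For exon 12 of F2 it went from 8.92% to 3.51% (unadjusted p = 0.0221), and in both genes the groups overlapped. Others were exons of AHSG (102 and 84 bases, with the same skipping junction), ALB (68 bases) and APOB (183, 154 and 192 bases) in which skipping reads appeared in only 1 or 2 libraries of a group. The exception was the 192-base exon of APOB, which had them in all 3 siFUBP1 libraries (share from 0.00839% to 0.151%). None of these changes passed the adjusted threshold.

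After U3 depletion an exon of APOA1, the main protein of high density lipoprotein, had a higher skipping share in U3 ASO, short of the adjusted threshold. The exon is listed with 2 ends that share 1 skipping junction, with 195, 229 and 159 in GFP ASO and 166, 170 and 245 in U3 ASO skipping reads, so both forms are 1 observation. The share went from 0.488% to 0.834% for the 113-base form (unadjusted p = 4.4e-04, adjusted p = 0.174) and from 0.265% to 0.449% for the 157-base form (unadjusted p = 6.1e-04, adjusted p = 0.223). The shares of the groups did not overlap. After FUBP1 knockdown the same exon had a lower share in siFUBP1, from 0.771% to 0.489% and from 0.509% to 0.324%, also without overlap (unadjusted p = 0.114 and 0.12). The difference between the experiments was not tested. In AMBP the share went from 0.0147% to 0.226% for a 47-base exon (unadjusted p = 0.00119) and from 1.67% to 1.01% for a 174-base exon (unadjusted p = 0.00202). A 138-base exon of CFI had 5, 4 and 31 in GFP ASO and 0, 0 and 0 in U3 ASO skipping reads (unadjusted p = 0.00447), at about 24.3 reads per library. The rest were exons of AHSG (102 and 84 bases, and 111 and 108 bases, each pair with 1 skipping junction), ITIH2 (105 and 170 bases), C5 (210 bases), AFP (52 bases) and APOB (146 bases), with skipping shares of at most 2.39% in any group mean.

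In the FBL experiment the 4 events with an unadjusted p under 0.05 lay in SERPINF2 (205 bases, 0.00343), APOB (154 bases, 0.00391) and ITIH2 (114 and 108 bases, 0.0349 and 0.044), with adjusted p = 0.874 for each. The SERPINF2 event had reads in only 1 library of each group, so its p compares those 2 libraries. Exon 7 of CFI had inclusion levels of 0.935 and 0.894 in siCtrl2 and siFUBP1, 0.927 and 0.896 in GFP ASO and U3 ASO, and 0.921 and 0.967 in siCtrl and siFBL inputs. Its unadjusted p was 0.13, 0.21 and 0.147, so no change was detectable in any of them.

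Over all their events together, the plasma protein genes had a lower share of skipping reads in siFUBP1 than in siCtrl2. The share of skipping reads was 0.517%, 0.491% and 0.495% in siCtrl2 and 0.425%, 0.408% and 0.424% in siFUBP1, with every siFUBP1 library below every siCtrl2 library. Over all other events the means were 7.88% and 8.02%. CFI gave 31.7% of the skipping reads of the set in siCtrl2 and 20.5% in siFUBP1, and without CFI the means were 0.345% and 0.333%. In the U3 experiment the shares were 0.294%, 0.288% and 0.308% in GFP ASO and 0.311%, 0.299% and 0.341% in U3 ASO, with overlapping groups. In the FBL experiment they were 0.443% and 0.427% in siCtrl input and 0.490% and 0.544% in siFBL input. These shares weight each gene by its reads, so they follow gene levels as well as skipping. The level of CFI was itself lower after FUBP1 knockdown (log2 change -0.84). These shares are descriptions without a test.

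The level of each gene was followed by the junction reads of its event with the most reads, in RPM, and compared with limma on log2(RPM + 1). Each event counts reads over the same 3 junctions, so gene length does not enter directly, but a level also follows the use of those junctions. In RNA from whole cultures, fewer cells with a transcript and less of it per cell cannot be told apart. By this measure 5 of the 10 genes with the most reads in siCtrl2 belonged to the set, 6 of 10 in GFP ASO and 7 of 10 in siCtrl input.

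ALB ranked first of all genes in both polyadenylated controls, at 8222 ± 557 RPM in siCtrl2 and 9629 ± 317 in GFP ASO (SD, n = 3). In siCtrl input ALB ranked behind APOB, which came first there at 20821 ± 440 (SD, n = 2). The next members in siCtrl2 were AFP at 7993 ± 461, APOB at 7329 ± 1121, APOA2 at 5687 ± 314 and APOA1 at 4160 ± 273. Of these ALB, AFP and APOB lay within their spreads. APOH, FGG, C3, AMBP and AHSG followed, from 2226 to 1675. In GFP ASO the order was APOA1 at 6074 ± 234, AFP at 5403 ± 69.8, APOA2 at 2794 ± 191, APOB at 2634 ± 224, TF at 2516 ± 100.1 and AHSG at 2430 ± 129. APOE, APOH and FGG completed the first 10. In siCtrl input ALB, APOA1, AFP, C3, AMBP, APOA2, ITIH2, AHSG and SERPINA3 followed APOB. The tables differ in RNA selection, time and control treatment, so the orders stand side by side only.

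After FUBP1 knockdown a few plasma protein genes fell and APOB rose. Of 30 genes tested 8 were called, 7 lower and 1 higher, where 5.15% of all genes were called lower and 4.63% higher. The median log2 change of the set was -0.12 and that of all genes -0.05. FGG, the gamma chain of fibrinogen (chr4:154604134-154612967, minus strand), had 2029, 2171 and 2004 RPM in siCtrl2 and 909, 915 and 926 in siFUBP1. The 3 siFUBP1 libraries lay close together and far below the controls (log2 change -1.17 ± 0.08 (SE), adjusted p = 2.8e-15). CFI had 228, 231 and 207 RPM in siCtrl2 and 120.2, 113 and 137 in siFUBP1, again without overlap (log2 change -0.84 ± 0.13 (SE), adjusted p = 2.1e-05).

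VTN, vitronectin, an adhesion protein of plasma and matrix, had 72.5, 49.4 and 69.3 RPM in siCtrl2 and 34.3, 40.5 and 48.3 in siFUBP1 (log2 change -0.62 ± 0.21 (SE), adjusted p = 0.0715). Its call was lost in 4 of the 6 fits without 1 library (adjusted p = 0.137 to 0.255). F5, the cofactor of the prothrombin activating complex, fell by 0.48 on the log2 scale (adjusted p = 0.0687), and its call was lost in 5 of the 6 fits without 1 library and by the median of ratios. AFP had 8079, 7495 and 8404 RPM in siCtrl2 and 7307, 5736 and 6696 in siFUBP1. C3 had 2008, 1819.7 and 1929 RPM in siCtrl2 and 1527, 1550.1 and 1677 in siFUBP1. Both were lower in every siFUBP1 library by a small amount (log2 changes -0.29 ± 0.07 and -0.28 ± 0.08, adjusted p = 0.00809 and 0.0238). AFP lost its call without siFUBP1 replicate 2, and C3 without replicate 1 of either group. The SERPINA1 events on the alternate contig had 45.2, 121 and 155 RPM in siCtrl2 and 46.9, 35.8 and 42.3 in siFUBP1, where siCtrl2 replicate 1 lay within the range of the siFUBP1 libraries (log2 change -1.18 ± 0.25 (SE), adjusted p = 0.00147). Without siCtrl2 replicate 3 the log2 change was -0.82 and the call was lost (adjusted p = 0.107), and without siCtrl2 replicate 1 it was -1.70.

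APOB rose, with 7318, 8456 and 6213 RPM in siCtrl2 and 9020.3, 9994 and 9404 in siFUBP1 and no overlap (log2 change 0.38 ± 0.07 (SE), adjusted p = 4.6e-04). The other 22 genes did not pass the threshold. Among them ALB (0.01 ± 0.07), TF (-0.06 ± 0.08), AMBP (-0.03 ± 0.08) and APOH (-0.09 ± 0.08) had log2 changes within 0.1 of 0. ITIH1 (-1.23 ± 0.73), at about 13.3 reads per library, and F7 (0.54 ± 0.51), at 31.2, were too thinly read to tell. F2 (0.23 ± 0.12), ITIH3 (0.22 ± 0.15), SERPINF2 (0.13 ± 0.24), C5 (-0.44 ± 0.25) and CP (-0.34 ± 0.15) also fell short of it.

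Most plasma protein genes fell after U3 depletion. Of 41 genes tested 30 were called, 26 lower and 4 higher, where 9.33% of all genes were called lower and 31.1% higher. The median log2 change of the set was -0.44 and that of all genes 0.24, a difference of -0.68. Of the 41 genes 38 lay below the median of all genes. In 29 genes all 3 U3 ASO libraries lay below all 3 GFP ASO libraries and in 3 genes above them. The matching counts over all genes are not given, and deeper reads make such separation easier to see in this set. The next share counts only the event with the most reads of each gene tested. Within those reads the share of the set went from 11.9% ± 0.0700 to 8.91% ± 0.0811 (SD, n = 3). With median-of-ratios scaling in place of the table total, the median of all genes moved to 0.02 and that of the set to -0.66. By it 33 genes were called, 32 of them lower, where 2719 of all 8456 genes were called, 1395 of them lower. The scaling also moved the split of all calls, of which 23.1% were lower by the table total and 51.3% by the median of ratios.

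**Figure D2:**
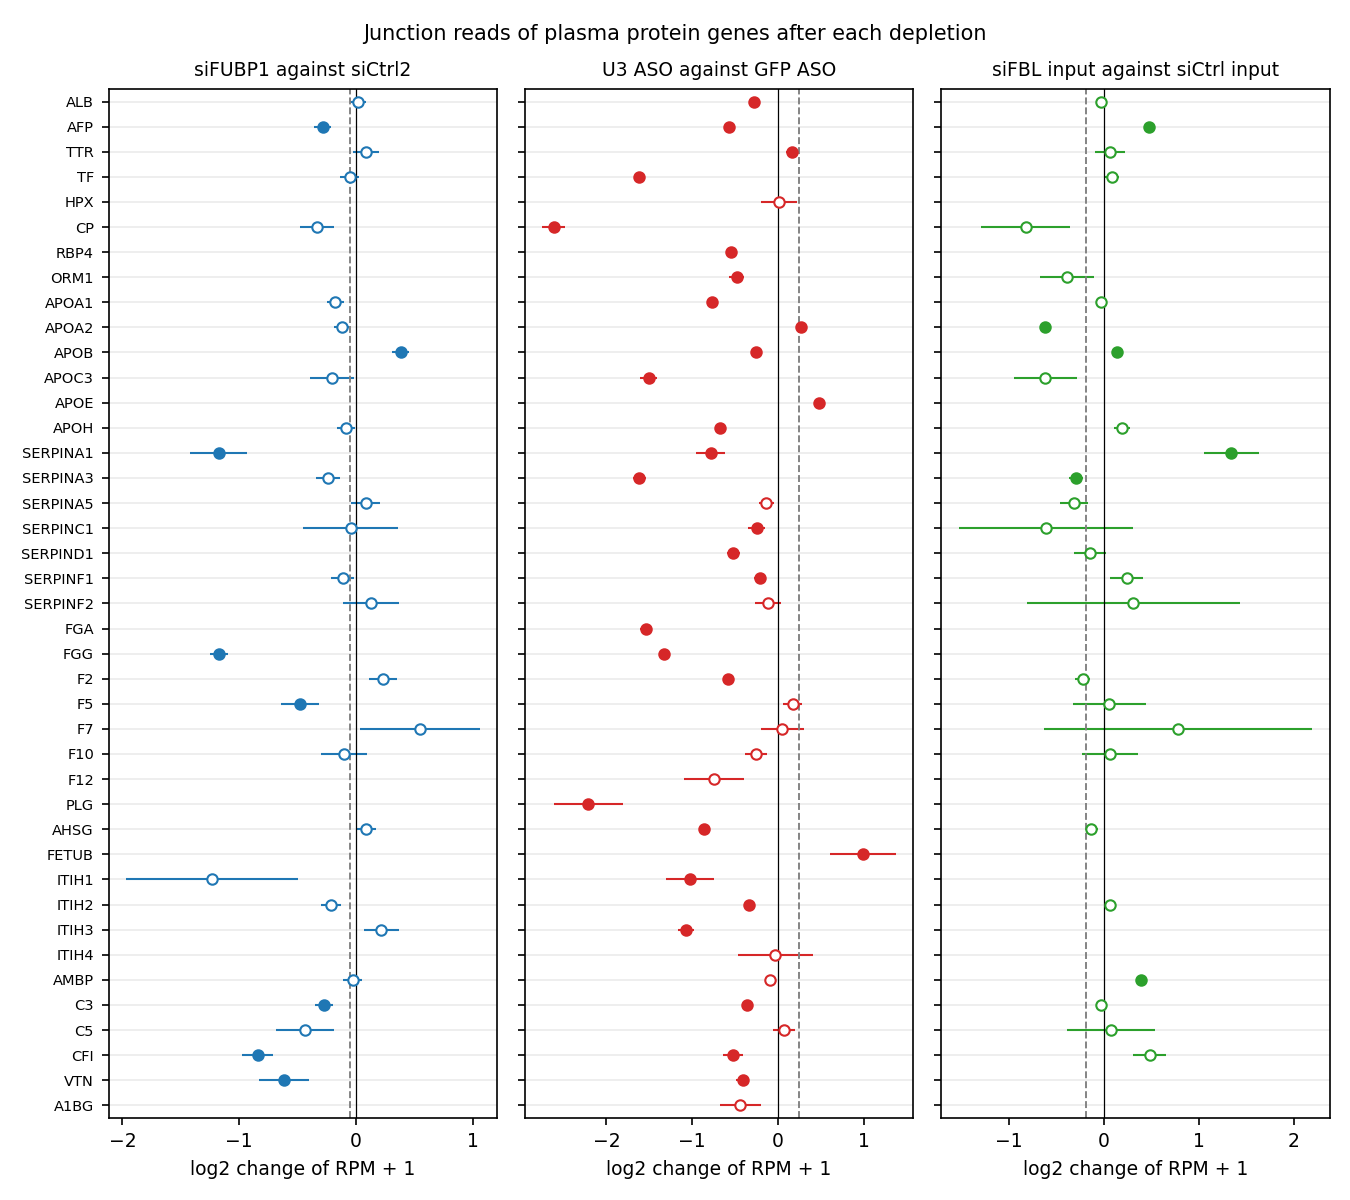
Log2 change of RPM + 1 (horizontal axes) of each plasma protein gene tested (rows, by role) in the 3 comparisons. Bars give ± 1 SE, with filled points for genes called at an adjusted p under 0.1, open points for others, and a dashed line at the median of all genes tested. In the U3 comparison 38 of 41 genes lie left of the dashed line at 0.24, against 19 of 30 left of -0.05 after FUBP1 knockdown and 8 of 28 left of -0.18 after FBL knockdown.

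Among the carriers, TF, which carries iron (chr3:133746040-133796641, plus strand), had 2403, 2594 and 2551 RPM in GFP ASO and 788, 829 and 832 in U3 ASO, without overlap (log2 change -1.62 ± 0.05 (SE), adjusted p = 5.2e-22). CP, ceruloplasmin, a copper-binding ferroxidase (chr3:149162410-149221829, minus strand), showed the lowest log2 change of RPM + 1 in the set, a scale that understates the change of thinly read genes such as PLG, with 107, 111 and 121 RPM in GFP ASO and 16.6, 20.9 and 15.6 in U3 ASO (log2 change -2.61 ± 0.13 (SE), adjusted p = 5.3e-16). Both of these genes of iron handling were far below their controls in every library. AFP (-0.57 ± 0.04), RBP4, the retinol carrier (-0.54 ± 0.05), ORM1, orosomucoid (-0.48 ± 0.09), and ALB (-0.28 ± 0.04) fell less. ALB went from 9763, 9858 and 9268 to 7928, 7659.6 and 8225 RPM. TTR, transthyretin, which carries thyroxine, was called higher by the table total (0.17 ± 0.07) and had a log2 change of -0.0755 by the median of ratios. Its groups overlapped, and its call was lost in 4 of the 6 fits without 1 library. HPX, which binds heme, was not called (0.02 ± 0.21).

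The apolipoproteins split. APOC3, an inhibitor of triglyceride clearance, had 211, 275 and 298 RPM in GFP ASO and 88.4, 85.6 and 97.4 in U3 ASO (log2 change -1.51 ± 0.10 (SE), adjusted p = 2.3e-13). APOA1, its neighbour on chromosome 11, had 6255, 5809.8 and 6156 RPM in GFP ASO and 3665, 3552 and 3435 in U3 ASO (log2 change -0.77 ± 0.04 (SE), adjusted p = 6.3e-16). APOH (-0.67 ± 0.05) and APOB (-0.25 ± 0.05) were also called lower. APOE, a ligand of the low density lipoprotein receptor, rose, with 2182, 2163 and 2239 RPM in GFP ASO and 3035, 3125 and 2988 in U3 ASO and no overlap (log2 change 0.47 ± 0.04 (SE), adjusted p = 1.8e-10). It stayed called by the median of ratios, at 0.23. APOA2 was called higher by the table total (0.26 ± 0.05) and stood at 0.02 by the median of ratios (adjusted p = 0.807). By the table total it stood level with the median of all genes.

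Of the serpins, SERPINA3, alpha-1-antichymotrypsin, had 359, 375 and 385 RPM in GFP ASO and 128, 114 and 121 in U3 ASO (log2 change -1.62 ± 0.07 (SE), adjusted p = 4.5e-17). SERPIND1, heparin cofactor II (-0.52 ± 0.08), SERPINC1 (-0.25 ± 0.10), SERPINF1 (-0.21 ± 0.06) and the SERPINA1 events (-0.78 ± 0.17) were called lower by smaller amounts. SERPINC1 lost its call in 4 of the 6 fits without 1 library, and SERPINA1 when all its events were summed (-0.35, adjusted p = 0.127). SERPINA5 (-0.13 ± 0.09) and SERPINF2, alpha-2-antiplasmin (-0.12 ± 0.15), were not called. Both fibrinogen chains with an event fell steeply. FGA had 672, 811 and 719 RPM in GFP ASO and 267, 239 and 246 in U3 ASO (log2 change -1.54 ± 0.07 (SE), adjusted p = 1.7e-17). FGG had 1698, 1801 and 1731 RPM in GFP ASO and 658, 682 and 734 in U3 ASO (log2 change -1.33 ± 0.05 (SE), adjusted p = 5.4e-19).

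Among the clotting and fibrinolysis factors F2 was lower (-0.58 ± 0.07) while F5 (0.17 ± 0.11), F7 (0.05 ± 0.25), F10 (-0.26 ± 0.13) and F12 (-0.74 ± 0.35) were not called. PLG, plasminogen, was thinly read, with 6.22, 4.41 and 3.64 RPM in GFP ASO and 0.177, 0.342 and 0.15 in U3 ASO from about 30 reads per library (log2 change -2.21 ± 0.40 (SE), adjusted p = 7.5e-05). AHSG, fetuin A, which keeps calcium phosphate in solution, had 2296, 2439 and 2554 RPM in GFP ASO and 1332, 1312 and 1353 in U3 ASO (log2 change -0.87 ± 0.05 (SE), adjusted p = 1.9e-15). FETUB, fetuin B, was called higher with 1.96, 0.98 and 1.06 RPM in GFP ASO and 3.98, 3.85 and 2.93 in U3 ASO (0.99 ± 0.38) and lost the call by the median of ratios (adjusted p = 0.119) and in 3 of the 6 fits without 1 library. In the inter-alpha-trypsin inhibitor family ITIH3 (-1.07 ± 0.10), ITIH1 (-1.03 ± 0.29) and ITIH2 (-0.34 ± 0.06) were lower, and ITIH4 (-0.03 ± 0.44) and AMBP (-0.09 ± 0.05), the light chain precursor, were not called. Of the complement genes CFI (-0.52 ± 0.12) and C3 (-0.36 ± 0.05) were lower and C5 (0.07 ± 0.13) was not called. VTN was lower (-0.41 ± 0.08) and A1BG (-0.44 ± 0.24) not called.

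**Figure D3:**
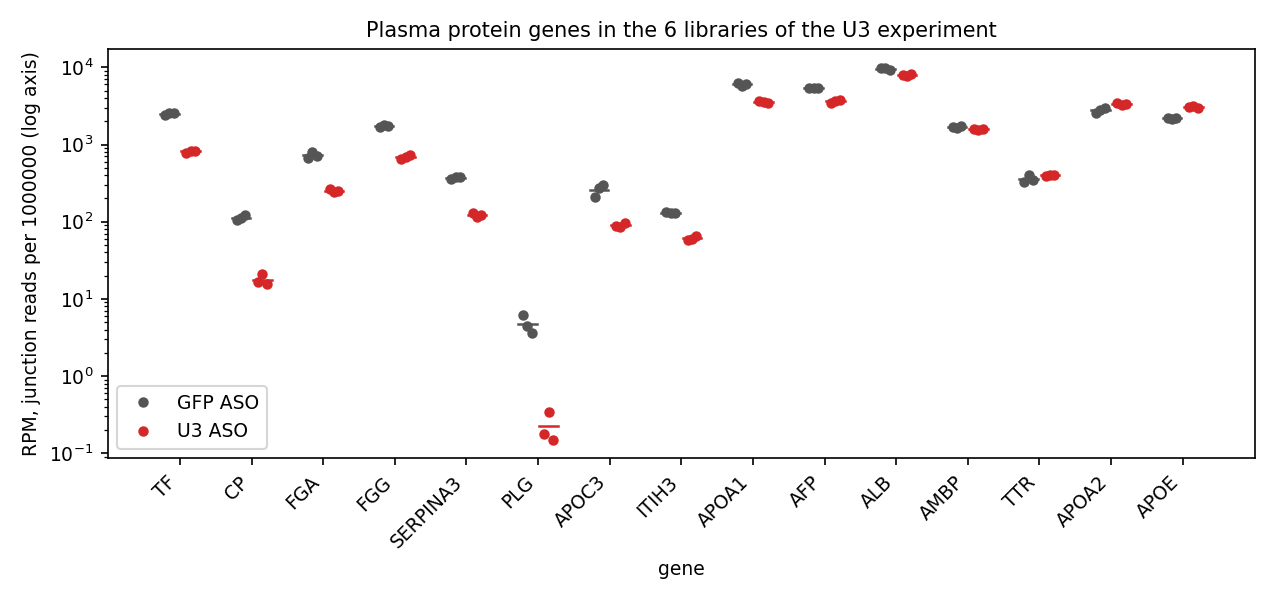
RPM (vertical log axis) of 15 plasma protein genes in the 3 GFP ASO libraries (grey) and the 3 U3 ASO libraries (red), with points for libraries and lines for group means. TF, CP, FGA, FGG, SERPINA3, APOC3 and ITIH3 separate fully below their controls, APOE and APOA2 separate above them, and TTR overlaps.

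The 9 genes called lower by at least 1 on the log2 scale after U3 depletion were CP, PLG, TF, SERPINA3, FGA, APOC3, FGG, ITIH3 and ITIH1. The 250 bases before the RefSeq start of 3 of them (GRCh38.p14) are shown. These 3 were chosen after their values were seen and because they hold a match, so they do not stand for the 9. Capitals mark matches to TTCNNNGAA or TTNNGNAA on either strand, patterns found in the motifs of STAT and C/EBP factors. They lie at chr4:154612657-154612906 (FGG, minus strand), chr4:154590743-154590992 (FGA, minus strand) and chr14:94612141-94612390 (SERPINA3, plus strand).
FGG: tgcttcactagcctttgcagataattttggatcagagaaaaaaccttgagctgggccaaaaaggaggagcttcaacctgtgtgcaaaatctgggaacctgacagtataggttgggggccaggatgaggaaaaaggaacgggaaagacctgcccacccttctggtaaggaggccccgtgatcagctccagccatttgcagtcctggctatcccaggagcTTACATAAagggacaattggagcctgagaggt
FGA: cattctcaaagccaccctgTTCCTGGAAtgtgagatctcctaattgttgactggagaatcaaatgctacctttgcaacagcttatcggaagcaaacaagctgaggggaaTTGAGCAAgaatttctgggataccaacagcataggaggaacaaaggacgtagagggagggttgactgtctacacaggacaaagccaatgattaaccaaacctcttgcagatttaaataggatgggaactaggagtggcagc
SERPINA3: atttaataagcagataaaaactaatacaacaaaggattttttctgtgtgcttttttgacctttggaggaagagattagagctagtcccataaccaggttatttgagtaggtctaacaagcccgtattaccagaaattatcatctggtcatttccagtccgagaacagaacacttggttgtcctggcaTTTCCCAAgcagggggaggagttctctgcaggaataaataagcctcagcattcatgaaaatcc
TTCNNNGAA occurred in 9 of the 36 promoters of the set that could be matched (25%) against 6.78% of 27305 promoters, and TTNNGNAA in 16 of 36 (44.4%) against 33.6%. Of the 9 genes above 7 had a promoter sequence, 1 of them (FGA) with the first motif and 3 (SERPINA3, FGA and FGG) with the second. A match of letters is not a binding site.

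After FBL knockdown 6 of the 28 genes tested were called, 2 lower and 4 higher, where 2.23% of all genes were called lower and 0.839% higher. Of the 28 genes 20 lay above the median of all genes. With 2 libraries per group, a gene not called may still have changed. The median was 0.06 in the set and -0.18 over all genes. AFP had 12801 and 12765 RPM in siCtrl input and 17643 and 17770.4 in siFBL input (log2 change 0.47 ± 0.03 (SE), adjusted p = 7.4e-10). AMBP had 8416 and 7802 RPM in siCtrl input and 11100.0 and 10212 in siFBL input (log2 change 0.39 ± 0.05 (SE), adjusted p = 1.4e-05). APOA2 went the other way, with 7399 and 7528 RPM in siCtrl input and 4708 and 5015 in siFBL input (log2 change -0.62 ± 0.06 (SE), adjusted p = 3.7e-08). None of these 3 genes overlapped between the groups of 2 libraries. APOB was slightly higher (0.14 ± 0.03, adjusted p = 0.0103), the SERPINA1 events were higher (1.34 ± 0.29, 0.0103) and SERPINA3 was lower (-0.29 ± 0.07, 0.0321). Without siFBL input replicate 1 the call of AMBP was lost (adjusted p = 0.137), as was that of SERPINA1 (log2 change 0.95, adjusted p = 0.4). The calls of APOB and SERPINA3 were each lost in 3 of the 4 fits without 1 library, and that of SERPINA3 also by the median of ratios. With that scaling 11 genes were called, 1 of them lower, where 85 of all 3098 genes were called, 30 of them lower. The median of all genes moved to -0.01 and that of the set to 0.24. The lower share of all calls went from 72.6% to 35.3%.

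Side by side, APOB had a log2 change of 0.38 after FUBP1 knockdown, -0.25 after U3 depletion and 0.14 after FBL knockdown. AFP stood at -0.29, -0.57 and 0.47 in the same order. FGG was called lower in both experiments that measured it, at -1.17 and -1.33. CFI stood at -0.84, -0.52 and 0.48, the last not called. TF was called only after U3 depletion, with -0.06, -1.62 and 0.08. FUBP1 itself was also called lower after U3 depletion, at -0.45. The event that gave the level was the same across experiments for APOB, FGG and CFI. For TF it differed in all 3, and for AFP it was another one in the FBL experiment. The differences between experiments were not tested, since time, agent and RNA selection differ as well.

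Other genes for plasma proteins, from a list of 77 that excludes the 49, were also lower after U3 depletion more often than higher. Of 40 tested 17 were called lower and 7 higher, where 9.33% of all genes were called lower and 31.1% higher. Their median log2 change was -0.21 against -0.44 in the 49. By the median of ratios 22 were lower and 4 higher, where 2719 of 8456 genes were called, 1395 of them lower. After FUBP1 knockdown 2 of 25 were lower and 2 higher, where 5.15% and 4.63% of all genes were. After FBL knockdown 0 of 19 were lower and 2 higher, where 2.23% and 0.839% of all genes were. Of 20 liver transcription factor genes, 9 were tested in the U3 table, 0 were called lower and 6 higher (limma, adjusted p under 0.1). By the median of ratios 1 was lower and 0 higher. After FUBP1 knockdown 1 of 8, STAT3, was called lower and 0 higher, and after FBL knockdown 0 of 5 were called in either direction. The shares of all genes given above stand beside these counts as well.

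The transcripts of plasma protein genes were depleted rather than enriched in the FUBP1 immunoprecipitate. Enrichment is the log2 ratio of RIP over input, given per condition with its standard error. It was compared for 47 of the 49 genes with a mean normalised count of at least 50 in both conditions. C4A was listed at 0 and FETUB had a mean count under 50. The enrichment was below 0 for 46 of 47 genes in siCtrl and for 46 in siFBL, where 47.7% and 47.9% of all 11581 genes were. The median was -2.85 in siCtrl and -2.46 in siFBL, and over all genes 0.15 and 0.12.

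The 5 lowest values in siCtrl were those of APOM, which carries sphingosine 1-phosphate (-5.71 ± 0.68, SE), SERPINA6, the corticosteroid carrier (-4.71 ± 0.85), APOC3 (-4.22 ± 0.19), F12, the contact factor (-4.12 ± 0.69) and A1BG (-4.08 ± 0.16). The 5 highest were CFI (0.20 ± 0.06), the only value above 0, C5 (-0.20 ± 0.07), CP (-0.42 ± 0.07), APOH (-0.49 ± 0.07) and FGG (-0.51 ± 0.05). The gap between CFI and the next gene exceeded their standard errors, while CP, APOH and FGG lay within them. The most abundant transcripts were intermediate, with APOB at -1.24, AFP at -1.29 and ALB at -1.37, and APOA1 and APOE were low at -3.81 and -3.74. By role the median was highest for the 3 fibrinogen chains (-0.79) and lowest for VTN and A1BG (-4.06) and the apolipoproteins (-3.74).

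Genes with longer introns, and those with longer exonic sequence, had higher enrichment. Across the 47 genes, which share the same libraries, the log10 of the intronic bases of the canonical transcript correlated with the siCtrl enrichment at Pearson r = 0.52 and Spearman rho = 0.48. Across 10433 of all genes these were 0.43 and 0.44. The exonic bases of the transcript gave r = 0.39 and rho = 0.42 across the 47 genes and 0.41 for both across all genes. The 16 members with the shortest introns, from 0.863 to 8.36 kb in total, had a median of -3.36, the next 16, up to 16.9 kb, -3.11, and the 15 with the longest, up to 92.5 kb, -1.34. All genes of the same intronic lengths had medians of -1.77, -0.95 and 0.59, so the plasma protein genes lay lower in each range of length. CFI, C5 and CP, with the highest values, have 59.3, 92.5 and 44.9 kb of intron, and APOM 1.56 kb, while FGG and FGB were high with only 6.41 and 6.16 kb.

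**Figure D4:**
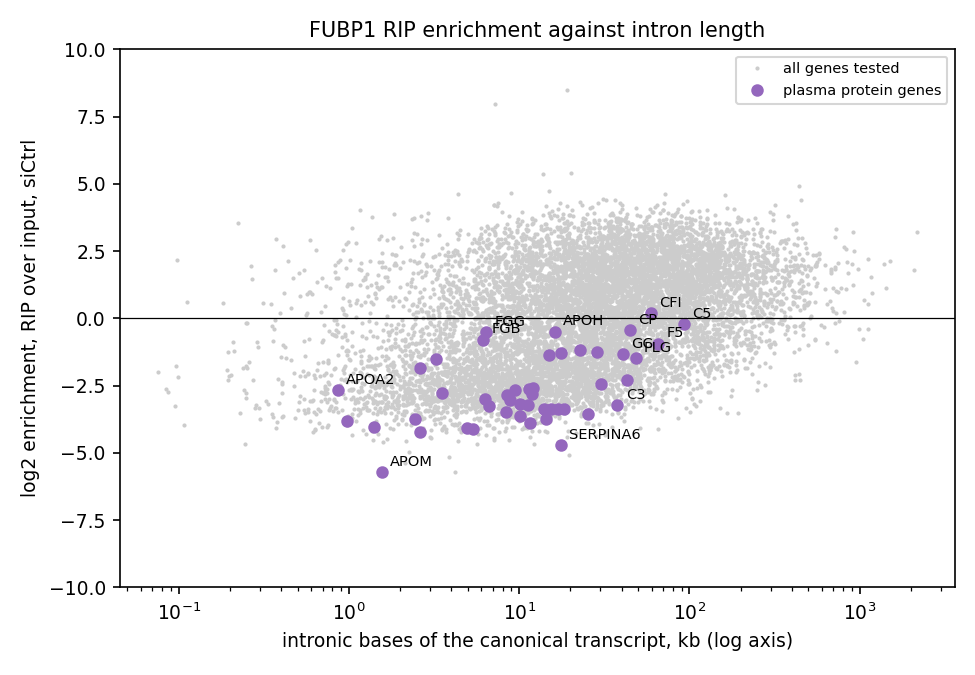
FUBP1 RIP enrichment in siCtrl (vertical axis, log2 of RIP over input) against the total length of introns in the canonical transcript (horizontal log axis, kb) for 10433 genes (grey) and the 47 plasma protein genes (purple). The purple points lie in the lower part of the grey cloud, and CFI, at 59.3 kb, is the only one above 0.

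After FBL knockdown the depletion was weaker for 42 of the 47 genes. The difference of the enrichments was called, by a Wald test with the deposited standard errors and an adjusted p under 0.1, for 25 genes, all higher in siFBL, where 6.57% of all genes were called higher and 8.18% lower. The clearest were APOE, -3.74 ± 0.03 in siCtrl and -3.08 ± 0.03 in siFBL (SE, difference 0.67 ± 0.04, adjusted p = 7.0e-47) and C3, -3.23 ± 0.03 in siCtrl and -2.73 ± 0.02 in siFBL (difference 0.50 ± 0.03, 4.0e-42). TF, -2.43 ± 0.04 in siCtrl and -1.93 ± 0.02 in siFBL (difference 0.50 ± 0.04, adjusted p = 5.5e-32) and APOA1, -3.81 ± 0.04 in siCtrl and -3.28 ± 0.03 in siFBL (difference 0.53 ± 0.05, 1.3e-24), followed. In each of these 4 genes the difference was more than 10 times its standard error. APOM had the largest difference, 2.56 ± 0.99, from a mean of only 128 and 63.2 normalised counts in the 2 conditions (adjusted p = 0.0748).

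The other genes called higher were F7 (0.81 ± 0.24), SERPINA1 (0.60 ± 0.15), F10 (0.55 ± 0.15), SERPINF1 (0.48 ± 0.07), SERPINA3 (0.45 ± 0.06), VTN (0.38 ± 0.13), AMBP (0.38 ± 0.06), F2 (0.37 ± 0.07), ITIH3 (0.37 ± 0.10) and TTR (0.36 ± 0.13). ITIH2 (0.31 ± 0.06), SERPIND1 (0.30 ± 0.10), AHSG (0.30 ± 0.05), RBP4 (0.30 ± 0.07), FGA (0.25 ± 0.06) and SERPINA5 (0.23 ± 0.07) followed, and the smallest called differences were those of APOA2 (0.20 ± 0.08), ALB (0.20 ± 0.05), FGB (0.18 ± 0.06) and APOB (0.15 ± 0.05). The 22 genes not called included those with the highest enrichment, such as CFI (0.02 ± 0.08), APOH (0.00 ± 0.08) and FGG (0.01 ± 0.06), and thinly read ones such as SERPINA6 (1.34 ± 0.99), F12 (0.93 ± 1.18) and GC (-0.53 ± 0.54).

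The rise was close to that of other genes with a similar starting value, which itself enters the difference. Between -4 and -3 in siCtrl the median difference was 0.48 over 17 members and 0.47 over all 672 genes. Between -3 and -2 it was 0.30 over 9 members and 0.33 over 1638 genes, and between -1 and 0 it was 0.05 over 6 members and 0.07 over 1551 genes. Genes that started above 1 moved the other way, with medians of -0.16 between 1 and 2 and -0.31 above 2, and no member started there. The 8 members between -2 and -1 had 0.11 against 0.21 over 1540 genes, and the 6 below -4 had 0.66 against 0.71 over 124 genes. Of the other 77 plasma protein genes 49 were tested, 39 of them below 0 in siCtrl with a median of -2.19, where 47.7% of all genes were below 0. Of these 49 genes 9 were called higher and 4 lower, where 6.57% of all genes were called higher and 8.18% lower.

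**Figure D5:**
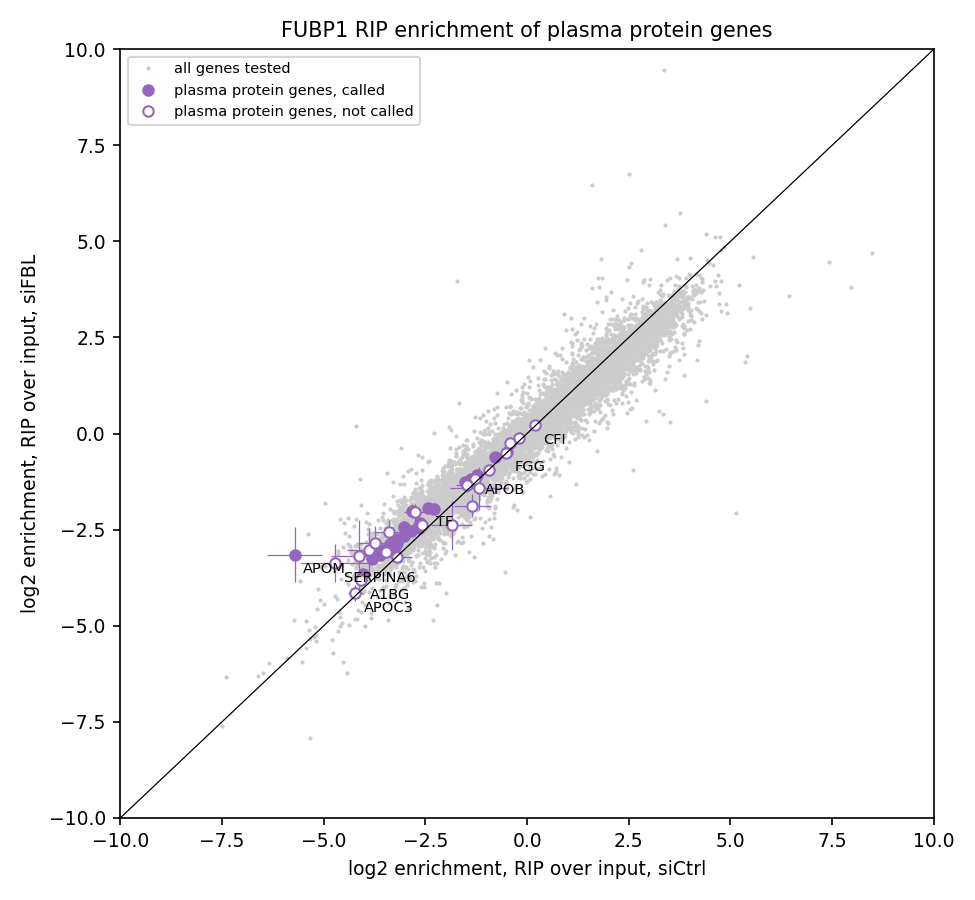
FUBP1 RIP enrichment (log2 of RIP over input) in siFBL (vertical axis) against siCtrl (horizontal axis) for 11581 genes (grey, 2 of them outside the axes) and 47 plasma protein genes (purple, filled where the difference was called, bars ± 1 SE), with the line of equal values. Of the purple points 42 lie above the line and 46 lie left of 0.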

How the data were processed

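HepG2 cells gave 20 libraries, of which 16 (12 of polyadenylated RNA and 4 inputs) entered the splicing tables and 8 (4 inputs and 4 FUBP1 RIP) the binding table. Per the submitters' processing notes and the study's methods, the authors trimmed reads with cutadapt, mapped them to hg38 with HISAT2, listed exon skipping events with rMATS and deposited the inclusion and skipping junction read counts of each event per library. The authors compared RIP with input using DESeq2, and the deposited log2 enrichment per condition was used as the measurement of the assay. Its standard error and the mean normalised count over the libraries of the condition were taken as scores deposited by the authors. The deposited p-values, false discovery rates and the 6 columns of inclusion levels were not used. The gene counter is named as featureCounts in the notes and as HTSeq in the methods, and tool versions are not given in the sources used here.

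Members and lists were chosen with earlier results of these data known. Exon skipping was tested by a quasi-binomial model with dispersion moderated across all events (limma 3.58.1, R 4.3.3) over events averaging 10 or more junction reads in a library, and gene levels by limma with a variance trend on log2(RPM + 1), where RPM is junction reads per 1000000 junction reads of the table. Binding was tested by a 2-sided Wald test of the difference between enrichments, at a mean count of at least 50. Adjusted p-values are Benjamini-Hochberg values over all features of a table, called under 0.1. Named were each called event or gene, events with an unadjusted p under 0.05, the 10 members with the most reads, the 5 largest level changes in each direction, and the 5 highest and lowest enrichments. 1 event that met this rule is not reported here. Scripts were tested on simulated data. Exons were matched to GENCODE 44 on hg38 and promoters to RefSeq (GRCh38.p14, 36 of 49 members matched).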

Additional observations from a re-analysis of the deposited data

How the results depend on the processing

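Skipping calls depended on the test and on single libraries. With limma on the log2 odds, with or without a variance trend, the 4 events called after FUBP1 knockdown and the 6 called after U3 depletion became 0 each. Leaving out 1 library at a time gave 0 to 2 and 2 to 8 calls, and using main chromosomes only left 4 of the 6 in the U3 experiment. Among gene levels, summing all listed events raised the calls after FUBP1 knockdown from 8 to 13, and leaving out 1 library gave 5 to 9, with 5 without siCtrl2 replicate 3 or siFUBP1 replicate 2. After FBL knockdown median-of-ratios scaling gave 11 calls in place of 6, and leaving out 1 library, where the lone sample of that group is assumed to vary like the others, gave 2 to 6, with 2 without siFBL input replicate 1. The U3 levels gave 27 to 31 calls without each library, and TTR turned to -0.0755 by the median of ratios. Binding calls numbered 24 or 25 under every filter and centring tried. Leaving out the events of CFI, chosen after seeing the data, moved the change of the skipping share from -0.0821 to -0.0114 percentage points after FUBP1 knockdown and from 0.0821 to 0.035 after FBL knockdown; the cause was not tested. No paired analysis was possible because the positions in the lists of reads carried no replicate number and the enrichment table held values per condition. The FBL table, with 910779 to 1142189 junction reads per library, limits what skipping can be seen there.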
